A study of Arabidopsis thaliana with 6 samples.

Results

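The chitin 4mer is a short oligomer of N-acetylglucosamine, the sugar from which the chitin of fungal walls and crustacean shells is built, and 67 well-measured genes gave a lower signal in *Arabidopsis* seedlings after 30 min with it than in mock seedlings. They were chosen by their values. Levels are signals over the median signal of the same array, so that a level of 1 is the middle of the array. A gene was kept when its probe set pairs with that gene alone, its mean level over the 6 arrays was at least 0.5, every 4mer array lay below every mock array, and the geometric mean of the mock arrays was at least 1.5 times that of the 4mer arrays. Of 13513 probe sets that pair with 1 gene, 7841 reached the minimum level and are called well measured here, and 71 of these met the whole rule, or 0.905%. Removed by name were *BGLU25*, AT5G19890, AT1G49570 and AT2G43620, and so would have been any symbol of the cytochrome P450, glycosyltransferase, glutathione transferase, MYB, NAC or alpha-expansin families. The mirrored rule, for genes higher with the 4mer, gave 86.

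The 4mer group was whole Col-0 seedlings, 14 days old, grown in shaken liquid Murashige and Skoog medium and given the purified 4mer at 100 µg/mL, and the mock group was the same kind of seedlings given an equal amount of water. Each group had 3 independent biological replicates, hybridized to 6 Affymetrix ATH1 arrays with 22746 probe sets each. Both groups are wild type, and the RNA came from whole plants, so fewer cells of a type and less RNA per cell cannot be told apart in any value below. Tissue markers fitted the label: *PYK10*, a beta-glucosidase abundant in roots, averaged 54.5 in 4mer and 58.8 in mock seedlings, and *RCA*, the RuBisCO activase of leaves, 52.8 in 4mer and 54.5 in mock seedlings. *ACT12*, an actin of pollen, was near 0 at 0.0349 in 4mer and 0.0601 in mock seedlings. A gene of a list is called measured here when the annotation pairs a probe set with that gene alone, and 8730 probe sets are not listed in it. None of the 13 genes of the seed list was measured in this sense, so nothing is read about seed tissue. Mock replicate 1 stood apart, with correlations of 0.946 to 0.954 with the other arrays over the log2 levels of the well-measured genes, against 0.982 to 0.992 for all other pairs.

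The rule took genes of unrelated roles, some from families that are well known in other settings. Plants short of oxygen switch on a small core set of genes under a group of ethylene response factors. CC-type glutaredoxins act with TGA factors in redox control of transcription, and osmotin, lectins and PR-1-like proteins accumulate during defense. The gene table gives a symbol of its own for 13 of the 67 genes and only the locus for the other 54, so the families named below for loci are general *Arabidopsis* annotation, given as background. By role, 9 genes belong to the low-oxygen set, 6 to redox proteins, 8 to defense and secreted proteins, 8 to growth and regulation, 9 to transport and metabolism, 3 to mitochondrial assembly and 9 to protein synthesis and handling, and 15 are given no role.

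Since the rule used the same contrast, all differences of the 67 genes are given as a description. The median difference was -0.67 on the log2 scale (4mer minus mock, as in all log2 values below), from -2.07 to -0.59, while the median over all well-measured genes was -0.03 with quartiles of -0.17 and 0.11. The mock over 4mer ratio was at least 2 in 10 of the genes and under 1.6 in 35. Their mean levels ran from 0.501 to 27.2 times the array median, with a median of 1.46, against 1.95 for all well-measured genes. In 17.0% of all well-measured genes every 4mer array lay below every mock array, and this share, like the 0.905%, is a background from which nothing is read about the 67.

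In the limma fit, whose p-values were adjusted over the whole array by Benjamini-Hochberg, 0 of the 67 genes had an adjusted p under 0.05, and the smallest was 0.0564, for AT2G25510 and AT1G43910. An unadjusted p under 0.05 was reached by 65 of them, where 6.86% of all probe sets reached it on the lower side. The same fit called 8 probe sets lower (0.0352%) and 15 higher (0.0659%) over the whole array. The SAM statistic, the test named in the study's methods, called none of the 67. Without mock replicate 1, 156 probe sets were called lower (0.686%) and 17 of the 67 passed limma, but the ratio of 34 of the 67 dropped below 1.5 and the median difference was -0.58. Nothing is read from these counts about the genes, because the rule chose them on this contrast.

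**Figure D1:**
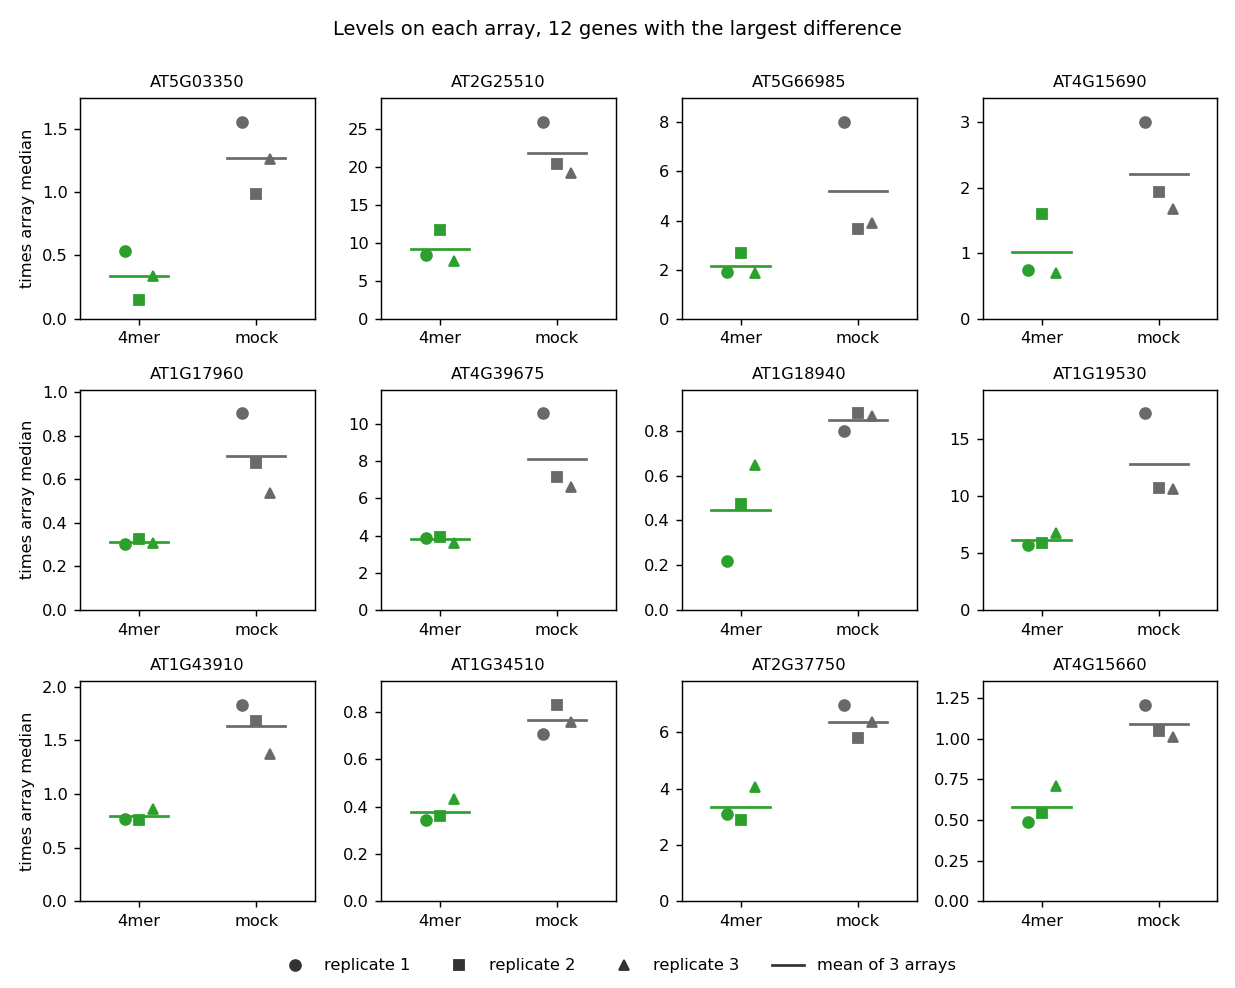
Level on each array (vertical axes, times the array median, linear from 0) of the 12 genes with the largest mock over 4mer ratio, with 4mer seedlings on the left and mock seedlings on the right, symbols for the replicates and bars for the mean of 3 arrays. The groups do not overlap, as the rule requires, and mock replicate 1 is the highest array in 10 of the 12 panels.

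The legume lectin gene AT5G03350 had the largest difference of all. Its level was 0.532, 0.146 and 0.338 in 4mer seedlings, against 1.56, 0.987 and 1.26 in mock seedlings. All 4mer arrays were below the lowest mock array, although the 4mer replicates differed among themselves by more than 3-fold. The difference was -2.07 (standard error 0.43) and -1.91 without mock replicate 1, so this gene was the furthest from the others on either calculation. Legume-type lectins bind sugars, and this one is known from salicylic acid responses.

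The brightest of the 8 defense and secreted genes were AT4G33720, *OSM34* and *ECS1*. AT4G33720, of the CAP family to which the defense marker PR-1 belongs, had levels of 19.8, 22.2 and 22.9 in 4mer seedlings and 36.6, 32.2 and 29.6 in mock seedlings. *OSM34*, an osmotin of the thaumatin-like PR-5 family, had 15.5, 15.4 and 18.5 in 4mer seedlings and 25.7, 23.7 and 24.7 in mock seedlings. *ECS1*, a cell wall protein first linked to *Xanthomonas* resistance, had 6.54, 6.25 and 6.76 in 4mer seedlings and 8.66, 11.1 and 10.6 in mock seedlings. In AT4G33720 the highest array was mock replicate 1, in *OSM34* the mock arrays were close together, and in *ECS1* mock replicate 1 was the lowest mock array. The differences were -0.60 (standard error 0.11) for AT4G33720, -0.59 (0.10) for *OSM34* and -0.62 (0.10) for *ECS1*. Leaving out mock replicate 1 gave -0.52 for AT4G33720, -0.56 for *OSM34* and -0.73 for *ECS1*, so that *ECS1* alone of them moved further from 0. AT4G33730, the next gene on the chromosome with no gene between them, encodes a second CAP protein, was far dimmer at a mean of 0.556 in 4mer and 0.874 in mock seedlings, and differed by -0.64.

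The remaining genes of this kind were a protease inhibitor of the potato inhibitor I type (AT2G38870, -0.70), a germin-like protein (AT3G05950, -0.68) and a glyoxal oxidase-related protein (AT1G19900, -0.65). Related genes outside the 67 were mixed. *ATLP-1*, the other thaumatin-like gene measured, averaged 4.12 ± 0.30 (SD, n = 3) in 4mer and 4.13 ± 0.35 in mock seedlings, a difference of 0.00 (-0.00181 before rounding). Among the 6 other measured genes of the pathogenesis-related list, 4 were lower and 2 higher, with a median of -0.38, and the plant defensin *PDF1.2* was dim, at 0.209, 0.249 and 0.211 in 4mer and 0.489, 0.347 and 0.35 in mock seedlings. None of the 6 passed limma.

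The low-oxygen set gave 9 of the 67 genes. AT5G66985, which encodes a small protein of unknown role, had levels of 1.89, 2.66 and 1.85 in 4mer seedlings and 8.02, 3.65 and 3.90 in mock seedlings. AT4G39675, another such small protein, had 3.87, 3.93 and 3.58 in 4mer seedlings and 10.6, 7.15 and 6.61 in mock seedlings. AT1G19530 had 5.72, 5.86 and 6.73 in 4mer seedlings and 17.3, 10.7 and 10.6 in mock seedlings. In each of them mock replicate 1 was well above the other mock arrays, by 2.13, 1.54 and 1.62 times, and the remaining mock arrays still lay above every 4mer array. The differences were -1.21 (standard error 0.29) for AT5G66985, -1.07 (0.16) for AT4G39675 and -1.04 (0.18) for AT1G19530, and -0.84, -0.86 and -0.80 without mock replicate 1. Without that array the limma adjusted p was 0.0461 for AT5G66985, 0.00304 for AT4G39675 and 0.00559 for AT1G19530. It was under 0.05 in 4 of the 9 genes of this set, where 0.686% of all probe sets were called lower without that array. These values are a description and no test, because the rule chose the genes on the same contrast.

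AT1G33055, a further small protein of unknown role, had 4.82, 7.42 and 4.83 in 4mer seedlings and 12.4, 9.35 and 9.01 in mock seedlings. AT4G33560, of a family annotated as wound-responsive, had 1.22, 1.96 and 1.27 in 4mer seedlings and 3.29, 2.24 and 2.56 in mock seedlings. In both, 4mer replicate 2 was the highest 4mer array and came near the lowest mock array. AT3G29970, of the B12D family, had 0.534, 0.647 and 0.586 in 4mer seedlings and 1.37, 0.835 and 0.955 in mock seedlings. AT3G27220, a kelch repeat protein, had 1.32, 1.67 and 1.41 in 4mer seedlings and 2.73, 2.17 and 2.2 in mock seedlings. The gap between the groups was again narrowest at 4mer replicate 2. AT4G17670, an FLZ zinc finger protein, had 1.22, 1.39 and 1.39 in 4mer seedlings and 2.17, 1.89 and 2.06 in mock seedlings, the most even of these genes. AT2G17850, a rhodanese-like sulfurtransferase, had 1.87, 2.69 and 1.79 in 4mer seedlings and 3.62, 2.95 and 2.92 in mock seedlings. Over all 9 genes the median difference was -0.87, and -0.72 without mock replicate 1, when 6 of the 9 kept a ratio of at least 1.5. Mock replicate 1 was the highest mock array in all 9, and 4mer replicate 2 the highest 4mer array in 7.

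The other genes of the low-oxygen list were mixed, with more lower than higher. The list, written after the 67 genes had been seen, holds 50 loci, of which 26 were measured and 17 are not among the 67. Of these 17, 13 were lower and 4 higher with the 4mer, with a median of -0.27 (-0.47 without mock replicate 1). None passed limma with all arrays or SAM. An unadjusted p under 0.05 was reached by 7 lower and 2 higher genes, against 6.86% of all probe sets on the lower side. Without mock replicate 1, AT5G47060 and AT3G03270 passed as lower and *CML38* and AT1G72940 as higher. In that fit 0.686% of all probe sets were called lower, and 182 of 22746 were called higher. Of the 17, 15 were well measured, and in 6 of these every 4mer array lay below every mock array, while in 2 every 4mer array lay above. The share of all well-measured genes with every 4mer array below was 17.0%, and the share with every 4mer array above is not given here. AT5G47060, a second FLZ protein, was the closest to passing, with 3.09, 3.25 and 3.10 in 4mer seedlings and 4.75, 4.59 and 4.34 in mock seedlings (difference -0.54, limma adjusted p = 0.0564). The universal stress protein gene AT3G03270 and AT4G27450 each differed by -0.53, AT5G44730 by -0.55 and AT1G74940 by -0.51, all without overlap but below the ratio of 1.5. AT5G10040 was too dim for the rule, with 0.107, 0.139 and 0.0576 in 4mer seedlings and 0.573, 0.398 and 0.445 in mock seedlings. *PDC2*, a pyruvate decarboxylase of the fermentation pathway, overlapped between the groups, with 8.09, 6.24 and 7.97 in 4mer seedlings and 5.97, 11.1 and 10.5 in mock seedlings. On the other side, the calmodulin-like gene *CML38* was at 2.39, 2.57 and 2.68 in 4mer seedlings and 2.12, 1.84 and 1.86 in mock seedlings, and AT1G72940 differed by 0.72. The summed level of all 26 genes lay between 76.8 and 87.0 in 4mer seedlings and between 113 and 138 in mock seedlings. This sum includes the 9 genes that the rule chose for being lower, so part of its gap is fixed by the choice. Since the list was written with the 67 genes known, these counts and the sum are a description only.

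**Figure D2:**
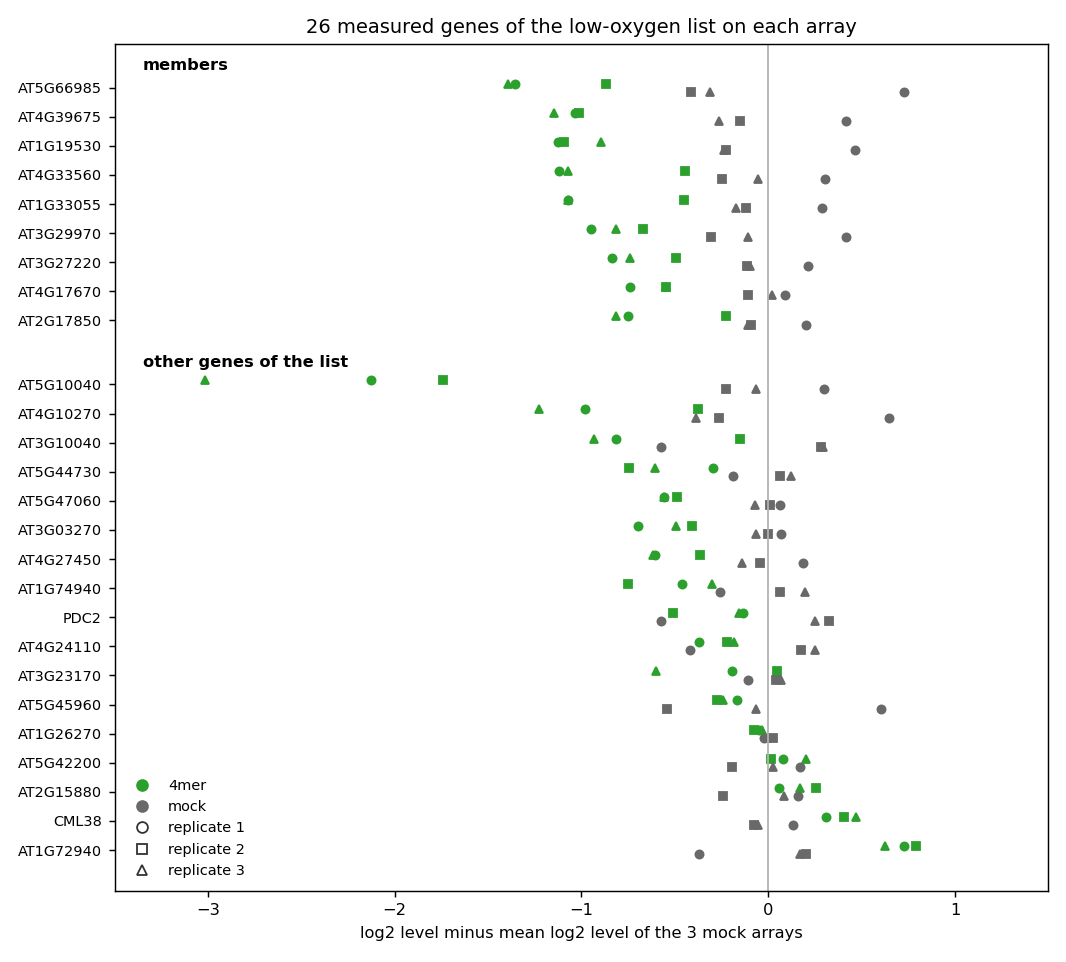
Log2 level on each array minus the mean log2 level of the 3 mock arrays (horizontal axis) for the 26 measured genes of the low-oxygen list, 4mer arrays in green above mock arrays in grey, with symbols for the replicates. The upper block holds the 9 genes of the rule, whose groups do not overlap by choice, and in the lower block 13 of the 17 genes have a mean below 0 with the 4mer.

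The 6 redox genes had a median difference of -0.87. The CC-type glutaredoxin gene AT4G15690 had levels of 0.741, 1.59 and 0.702 in 4mer seedlings and 3.01, 1.94 and 1.67 in mock seedlings. AT4G15660, a neighbour with 2 genes between them, had 0.491, 0.543 and 0.712 in 4mer seedlings and 1.21, 1.04 and 1.01 in mock seedlings. The gap was narrow for AT4G15690, where 4mer replicate 2 came close to mock replicate 3, and wider for AT4G15660. AT4G15690 differed by -1.19 (standard error 0.34) and AT4G15660 by -0.92 (0.18). The other measured glutaredoxins of this stretch of chromosome 4, AT4G15680 at -0.53 and AT4G15700 at -0.57, did not overlap between the groups either but missed the ratio. Of all well-measured genes, 17.0% had every 4mer array below every mock array. The genes of this cluster are related copies, and whether their probe sets share signal was not tested. The other 7 measured genes of the family gave no such gap, and AT5G18600, the brightest of them, averaged 11.8 ± 0.99 (SD, n = 3) in 4mer and 10.9 ± 1.28 in mock seedlings.

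A pair of class III peroxidases, secreted enzymes that make or use hydrogen peroxide in the wall, differed from most of the 67 in that mock replicate 1 was their lowest mock array. AT1G34510 had 0.342, 0.360 and 0.434 in 4mer seedlings and 0.707, 0.831 and 0.756 in mock seedlings, and AT3G49960 had 3.13, 2.41 and 3.10 in 4mer seedlings and 3.45, 4.69 and 4.93 in mock seedlings. The gap to the nearest mock array was thus clear for AT1G34510 and small for AT3G49960. The differences were -1.02 (standard error 0.18) and -0.59 (0.16), and -1.07 and -0.75 without mock replicate 1. The sulfurtransferase *STR18* (-0.83) and the thioredoxin-family gene AT3G25580 (-0.66) complete the redox genes. Of the 6, 5 kept a ratio of at least 1.5 without mock replicate 1.

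Among genes of growth and regulation, *ARL*, a relative of ARGOS that promotes organ growth through cell expansion, was by far the brightest. Its levels were 9.43, 8.30 and 8.40 in 4mer seedlings and 14.2, 12.4 and 12.8 in mock seedlings. Both groups were tight, and the difference of -0.59 had the smallest standard error of the 67 at 0.09. The limma adjusted p was 0.0650, and 0.0150 without mock replicate 1, given as a description. Of the 8 genes of this role, 1 was under 0.05 without that array, where 0.686% of all probe sets were called lower. None of the other genes in the list of 4 ARGOS relatives had a probe set that the annotation pairs with it alone, so their levels are not known. AT1G31050, a bHLH factor close to the minimum level, had 0.368, 0.293 and 0.420 in 4mer seedlings and 0.837, 0.592 and 0.527 in mock seedlings. *UPB1*, a bHLH factor known to repress peroxidase genes at the root tip, differed by -0.61, with means of 1.28 in 4mer and 1.98 in mock seedlings. The rest were the small GTPase *ARLA1B* (-0.78), the ubiquitin ligase *RING1* (-0.71), AT3G44450, an inhibitor of blue-light receptors (-0.62), the Dof zinc finger gene AT2G34140 (-0.62) and *SP1L4*, of the SPIRAL1 family of microtubule proteins (-0.62). Their median was -0.62, and -0.56 without mock replicate 1.

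Genes of transport and metabolism held both bright and dim members. AT1G43910, an AAA-ATPase, had 0.765, 0.758 and 0.860 in 4mer seedlings and 1.83, 1.68 and 1.37 in mock seedlings. AT1G18940, of a family of nodulin-like membrane transporters, had 0.220, 0.474 and 0.647 in 4mer seedlings and 0.799, 0.879 and 0.867 in mock seedlings. The first was tight in 4mer seedlings, while in the second the mock arrays were tight and the 4mer arrays spread by nearly 3-fold. Their differences were -1.03 (standard error 0.14) and -1.06 (0.36). *DI21*, a drought-induced gene, had 4.06, 4.24 and 4.03 in 4mer seedlings and 10.9, 5.5 and 5.54 in mock seedlings, so its difference of -0.75 became -0.43 without mock replicate 1. The other genes were a terpene synthase (AT3G29410, -0.78), a heavy-metal-binding protein (AT5G50740, -0.73), *TBL41* of the trichome birefringence-like family of wall acetylation (-0.67), a nitrobindin (AT1G79260, -0.65), a cation efflux protein (AT1G16310, -0.64) and the vacuolar processing enzyme *BETA-VPE* (-0.62). Of the 10 other measured AAA-ATPase genes, 7 were lower and 3 higher with the 4mer, and none passed limma with all arrays. AT3G28540 had the largest of these differences at -1.55, from dim levels of 0.0887, 0.0832 and 0.187 in 4mer seedlings and 0.486, 0.348 and 0.207 in mock seedlings.

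Of the 9 genes of protein synthesis and handling, 8 had a ratio under 1.5 when mock replicate 1 was left out. AT1G15270, of the TMA7 family of ribosome-associated proteins, had 4.49, 3.93 and 4.29 in 4mer seedlings and 13.4, 4.85 and 4.87 in mock seedlings. AT3G06700, a ribosomal protein of the L29e family, had 13, 11.7 and 11.5 in 4mer seedlings and 29.3, 14.6 and 14.9 in mock seedlings. In both, mock replicate 1 was far above the other mock arrays, by 2.75 and 1.98 times, and those lay close to the 4mer arrays. Their differences of -0.69 and -0.62 became -0.20 and -0.29 without it. The same held to a lesser degree for the ribosomal protein L39 gene AT3G02190, the RNA polymerase subunit *NRPB9B*, the Sec61 beta subunit AT3G60540, the cyclophilin AT2G36130 and the proteasome subunit AT5G57950, whose differences were between -0.31 and -0.41 without it. *PDF1A*, a peptide deformylase of organelles, was less dependent, with -0.61 on all arrays and -0.55 without it. AT1G17960, a threonyl-tRNA synthetase, was the exception, with 0.302, 0.325 and 0.306 in 4mer seedlings and 0.902, 0.675 and 0.535 in mock seedlings, a difference of -1.15 (standard error 0.23), and was the only one of these 9 genes to keep a ratio of at least 1.5. The 3 genes of mitochondrial assembly were divided in the same way. The LYR-family genes AT3G62810 and AT2G39725 became -0.43 and -0.40 without mock replicate 1, while AT5G51220, a chaperone of the cytochrome c reductase complex, kept -0.77.

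**Figure D3:**
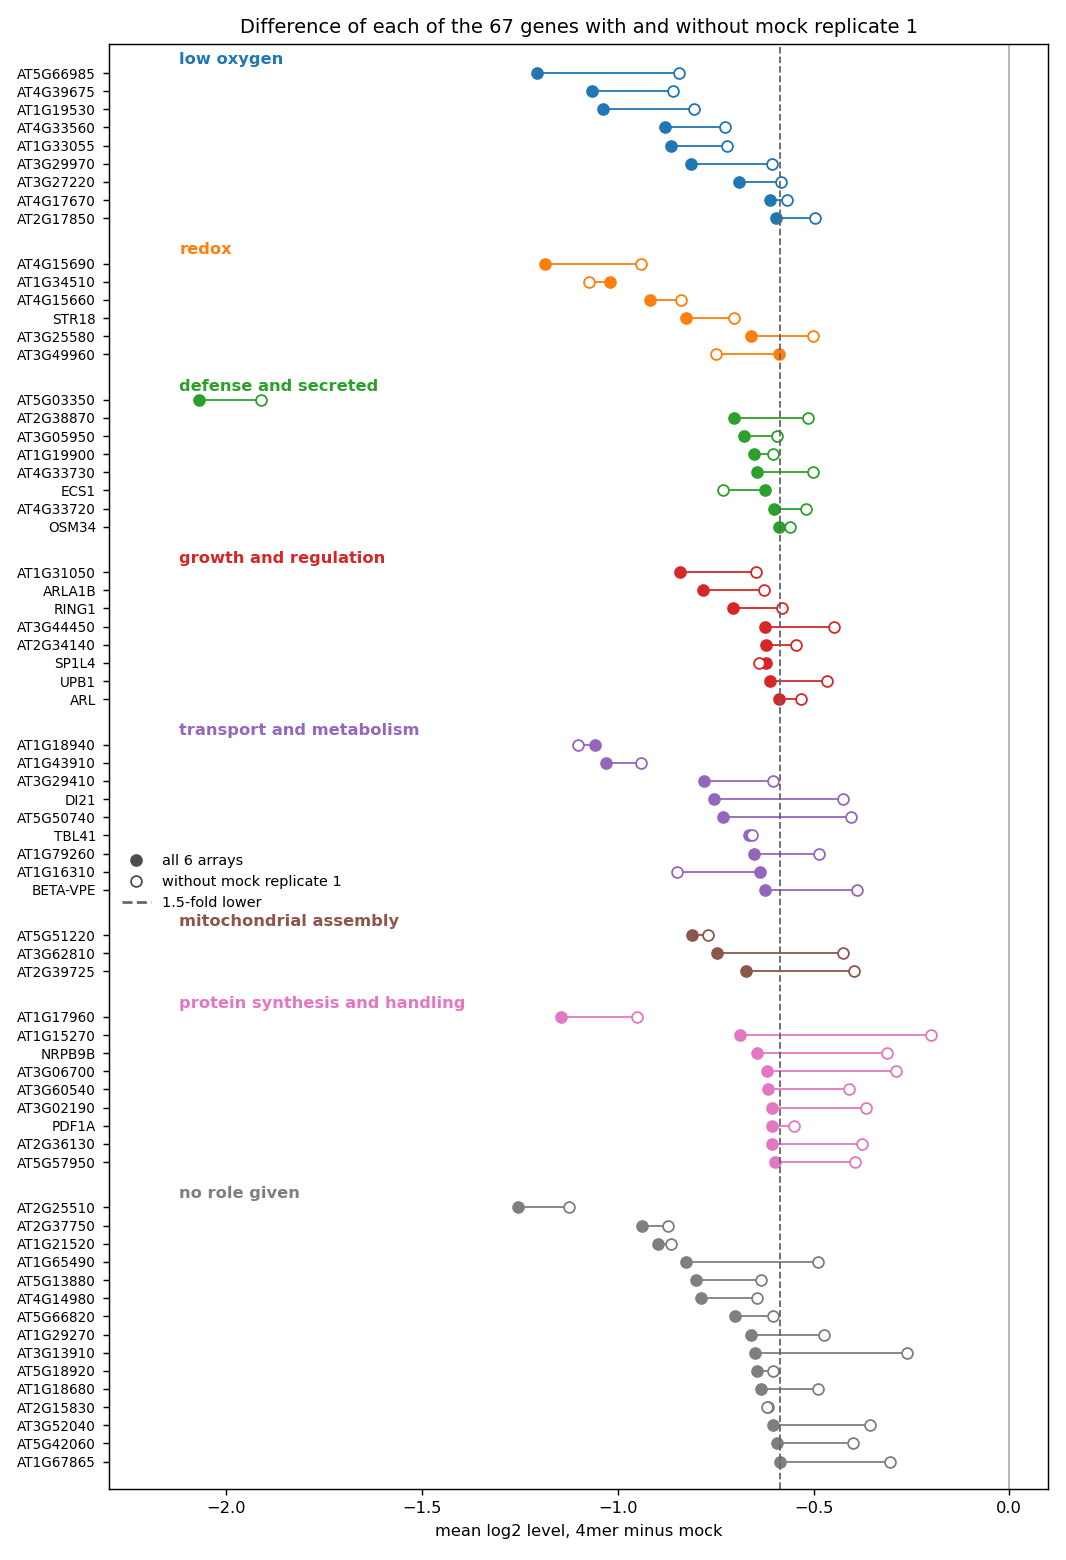
Mean log2 level of 4mer minus mock seedlings (horizontal axis) for each of the 67 genes, grouped by role, from all 6 arrays (filled) and without mock replicate 1 (open), with a dashed line at 1.5-fold lower. Filled points lie left of the dashed line by choice, and 34 open points lie right of it, including 8 of the 9 genes of protein synthesis and handling.

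Of the 15 genes that are given no role, AT2G25510 was the brightest, and its difference was second only to that of the lectin gene. Its levels were 8.42, 11.7 and 7.64 in 4mer seedlings and 25.9, 20.4 and 19.2 in mock seedlings. The lowest mock array was well above the highest 4mer array, and the difference was -1.25 (standard error 0.18), or -1.12 without mock replicate 1. AT2G37750 had 3.11, 2.89 and 4.06 in 4mer seedlings and 6.98, 5.79 and 6.35 in mock seedlings, a difference of -0.94 (0.14) on which mock replicate 1 had little bearing. AT3G52040 had 4.61, 4.60 and 4.82 in 4mer seedlings and 9.99, 6.09 and 5.88 in mock seedlings, and its difference of -0.60 became -0.36 without mock replicate 1. AT1G21520, the dimmest of the 67, had 0.349, 0.403 and 0.301 in 4mer seedlings and 0.681, 0.628 and 0.642 in mock seedlings. In the first of these mock replicate 1 was far above the rest, and in the second the mock arrays were close together. The other 11, namely AT1G65490, AT5G13880, AT4G14980, AT5G66820, AT1G29270, AT3G13910, AT5G18920, AT1G18680, AT2G15830, AT5G42060 and AT1G67865, differed by -0.83 to -0.59, and without mock replicate 1 AT3G13910 was at -0.26.

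At the limits of the rule the values run on without a break. AT1G67865, at a mock over 4mer ratio of 1.5001, was the last gene inside, with 0.984, 1.01 and 1.04 in 4mer seedlings and 2.24, 1.13 and 1.38 in mock seedlings, and *OSM34* (1.5036) and *ARL* (1.5043) were the next. Just outside were AT3G13650 at 1.4996, AT5G63190 at 1.4992 and *NRPB12*, another RNA polymerase subunit, at 1.4987. These genes did not overlap between the groups either. AT3G13650 had 1.81, 1.85 and 2.06 in 4mer seedlings and 3.11, 2.65 and 2.82 in mock seedlings. AT5G63190 had 5.5, 4.10 and 5.43 in 4mer seedlings and 9.41, 6.20 and 7.06 in mock seedlings, and *NRPB12* had 4.45, 3.72 and 4.99 in 4mer seedlings and 9.40, 5.43 and 5.44 in mock seedlings. In *NRPB12*, as in AT1G67865, mock replicate 1 was far above the other mock arrays. On the side of the mean level, AT1G21520 (0.501), AT1G31050 (0.506) and AT1G17960 (0.508) were just inside. AT5G58520 (0.497) was just outside, with 0.431, 0.458 and 0.285 in 4mer seedlings and 0.532, 0.698 and 0.580 in mock seedlings. AT1G18830 (0.483) had 0.291, 0.165 and 0.343 in 4mer seedlings and 0.548, 0.666 and 0.884 in mock seedlings, and AT1G77200 (0.477) had 0.103, 0.478 and 0.105 in 4mer seedlings and 0.708, 0.604 and 0.865 in mock seedlings. The minimum level thus left out genes with differences as large as most of those kept.

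Mock replicate 1 was the highest of all arrays in 59 of the 67 genes, or 88.1%, and the highest mock array in 49.4% of all well-measured genes. It exceeded the mean of mock replicates 2 and 3 by over 1.5 times in 22 of the 67 and by over 2 times in AT1G15270, AT3G13910, AT5G66985 and AT1G65490. It was the lowest mock array in 5, which were *ECS1*, AT3G49960, AT1G34510, AT1G18940 and AT1G16310. The median log2 excess of mock replicate 1 over the other mock arrays was 0.46 in the 67 genes and 0.05 in all well-measured genes, and in the 86 genes of the mirrored rule it was -0.32. By role it was largest in mitochondrial assembly (0.83) and protein synthesis and handling (0.69) and smallest in redox (0.30) and defense and secreted proteins (0.25). These values belong to the selection, since an array that is high by itself raises the mock over 4mer ratio.

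The 67 genes were also short, which the rule did not use. The 66 with a length in the gene table had a median length of 1211 bases with introns, from 466 to 3892, while the 7808 well-measured genes with a length had a median of 2339 and the genes of the mirrored rule 2112. Under 1000 bases were 30.3% of the 67 genes and 6.10% of the well-measured ones, and under 1500 bases were 68.2% of the 67 genes and 18.1% of the well-measured ones. The signal of mock replicate 1 moved with length over the whole array. Of 4 equal bins of well-measured genes by length, the shortest held 48 of the 66, and there its median log2 excess over the other mock arrays was 0.21, while in the following bins, which held 10, 7 and 1, it was 0.06, 0.00 (0.00187 before rounding) and -0.04. The median difference of 4mer minus mock was -0.08 in the shortest bin and 0.01 in the longest, and without mock replicate 1 it was -0.02 in both. Spearman's rho over these genes, which share the same arrays, was -0.24 between length and the excess of mock replicate 1. Without mock replicate 1 the rule gave 47 genes, of which 29 are among the 67, with a median length of 1627 bases. The part of length or of that array in any single gene was not tested.

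**Figure D4:**
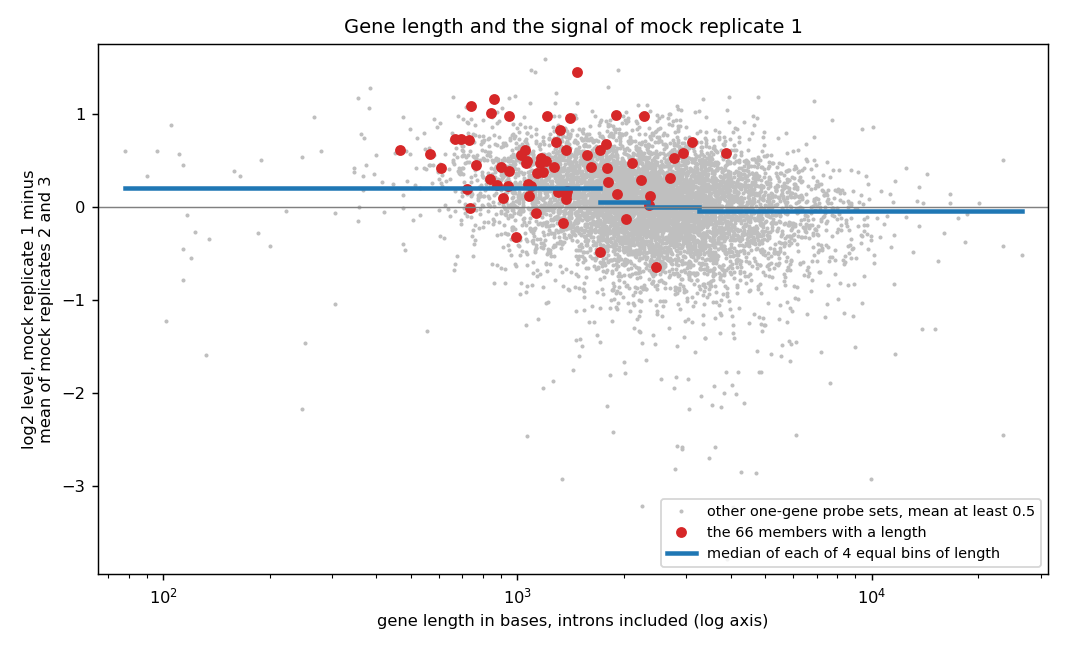
Log2 level in mock replicate 1 minus the mean of mock replicates 2 and 3 (vertical axis) against gene length in bases with introns (horizontal log axis) for 7808 well-measured genes, grey points for genes outside the 67, red for the 66 of the 67 with a length and blue lines for the median of each of 4 equal bins by length. Most red points lie above 0 and towards short genes, and the blue lines step down to -0.04 in the longest bin.

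By position the genes were spread over the genome, with 18 on chromosome 1, 10 on chromosome 2, 15 on chromosome 3, 11 on chromosome 4 and 12 on chromosome 5. Apart from the neighbouring CAP genes and the glutaredoxins, the closest pair was *ARLA1B* and AT3G49960, with 9 genes between them.

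Other pathways that act in seedling growth and stress were covered only in part, and their measured genes gave no calls with all arrays. Of 20 lists of such families and pathways, 17 had a measured gene and 4 held one of the 67. The 63 other measured genes of these lists included 0 that passed limma in either direction, and 0 were called by SAM. Over all probe sets limma called only 0.0352% lower and 0.0659% higher. An unadjusted p under 0.05 was reached by 5 lower and 3 higher genes, against 6.86% of all probe sets on the lower side. Nothing is read about these pathways from such counts. Without mock replicate 1, *XTH33* and the AAA-ATPase gene AT5G17760 passed as lower. Among auxin-response genes, 5 of 13 were lower and 8 higher with a median of 0.09, and among wall genes, mainly xyloglucan endotransglucosylases, 5 of 10 were lower with a median of -0.02. *XTH33*, one of these enzymes, had 1.4, 1.3 and 1.3 in 4mer seedlings and 1.68, 1.84 and 1.93 in mock seedlings, a difference of -0.45, and *EXPA18*, an expansin of root hairs, differed by -0.44. In both, as in 17.0% of all well-measured genes, every 4mer array lay below every mock array. The limma adjusted p was 0.176 for *XTH33* and 0.234 for *EXPA18*. Relatives of both went the other way. *XTH18* had 5.80, 5.66 and 5.99 in 4mer seedlings and 5.37, 4.55 and 4.91 in mock seedlings, a difference of 0.24. There every 4mer array lay above every mock array. *EXPA7*, another expansin among the root markers, differed by 0.18 with overlapping groups. Only 4 of 30 listed abscisic acid and cold genes, 2 of 27 ethylene genes and 3 light-harvesting genes were measured. None of these passed with or without that array, and the unmeasured genes of the pathways remain unknown. *COR47*, a dehydrin, averaged 23.1 ± 2.39 (SD, n = 3) in 4mer and 21.9 ± 1.52 in mock seedlings. *EIN3*, the main ethylene-response factor, averaged 9.0 ± 0.18 in 4mer and 7.89 ± 1.94 in mock seedlings, and the antenna gene *LHCB4.1* averaged 60.3 ± 5.12 in 4mer and 60.8 ± 14.7 in mock seedlings.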

How the data were processed

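RNA of 3 4mer and 3 mock samples was hybridized to ATH1 arrays, with labelling primed at the poly(A) tail. The deposited values are probe set signals computed by the authors with MicroArray Suite 5.0, an intensity on a linear scale. Array medians lay between 197.9 and 211.6. The scaling target and detection calls are not given in the sources used here.

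After the study's methods, 0.01 was the smallest value allowed, and the median of each array served as its unit. Log2 levels were compared with limma 3.58.1 (R 4.3.3; lmFit, eBayes with a variance trend, Benjamini-Hochberg over 22746 probe sets, threshold 0.05), since no SAM threshold is given in the sources used here. SAM, an alternative, used the 20 possible labellings of the arrays and a false discovery rate of 0.05. The scripts were tested on simulated data. Standard deviations are of levels, and standard errors are those of limma on the log2 scale. The number of arrays limits the precision.

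An annotation table of the array named the probe sets, of which 503 pair with several genes and 8730 are not listed. The TAIR10.1 gene table gave lengths and neighbours for 66 of the 67 genes. No promoter or protein sequences were used here, so the planned search for promoter motifs was not run.

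The 67 genes and the 20 lists of families were chosen with earlier results of these data known, and the low-oxygen and glutaredoxin lists were written after the 67 had been seen. From the family lists, 2 entries were taken out because their symbols belong to other genes. Values by array are given for *ECS1*, *OSM34*, *ARL*, AT2G25510 and AT1G43910, for the 12 largest ratios and 12 highest levels, for genes next to each limit and for those of the 67 in a list. Other genes given by array were chosen after their values were seen. Alternatives were quantile normalization, no scaling, a floor of 0.25, other limits of the rule, other means, no variance trend, a replicate block and leaving out each array. Plots were made in Python 3.11.15 with matplotlib 3.10.9.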

Additional observations from a re-analysis of the deposited data

How the results depend on the processing

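The rule gave 67 genes, and between 47 (without mock replicate 1) and 146 (without mock replicate 3) when 1 array was left out, with 124 without mock replicate 2. A minimum level of 0.25 gave 101 genes and of 1 gave 44. A minimum ratio of 2 gave 10, and a limit of -0.32 on the log2 difference, in place of -0.58, gave 470. Quantile normalization gave 60, of which 55 are among the 67, and no scaling gave 45. The limma count of lower probe sets, 8, was 5 with the floor, 2 without a variance trend, 22 over probe sets with a mean of at least 0.5 (5 of them among the 67), 4 with SAM and 0 to 156 when 1 array was left out, the most without mock replicate 1. The count of higher ones, 15, was 5, 0, 37, 0 and 0 to 182 under the same changes. With the replicate block both counts were 0. Deviations of same-numbered arrays correlated at -0.0498, -0.0377 and -0.0298. The labels give only a number, and whether same-numbered arrays were paired or shared a batch is not known. In the family lists, 0 to 2 genes passed on the lower side when 1 array was left out, the 2 without mock replicate 1. For the low-oxygen genes outside the 67, alternatives chosen after seeing the data gave a median of -0.23 without scaling and -0.47 to -0.26 with 1 array left out, against -0.27. The 26 genes named for ratio, level or list were lower in all 234 values under the 9 alternatives, which the absence of overlap fixes when an array is left out, so this is no sign of stability. AT5G03350 moved furthest, to -1.56 without 4mer replicate 2, against -2.07, and AT1G15270 next, to -0.20 without mock replicate 1, against -0.69. With 3 arrays per group and the lowest mean level of the 67 at 0.501, smaller differences in dim genes could not be separated from the spread.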
